A study of Mus musculus with 3 samples.

Results

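The genes described here encode 9 transcription factors of retinal bipolar cells: Vsx1, Isl1, Bhlhe22, Bhlhe23, Lhx4, Irx5, Irx6, Sebox and Prdm8. They were listed by name as factors of bipolar identity, with earlier results of these data known, and the array probes were found through the RefSeq accession printed for each probe. All 9 genes had a probe, 1 each, among the 55681 probes and the 21366 named genes with a usable signal. The samples were whole mouse retinas at postnatal day 12, with 1 array for each of 3 genotypes: wild-type, Otx2 KI and Crx KO. Otx2 and Crx encode related homeodomain transcription factors, KI is the usual short form for knock-in and KO for knockout. The labels state neither the locus of the Otx2 KI nor the changed part of Crx, and strain, sex and the number of mice per sample are not given in the sources used here. With 1 array per genotype, no test across samples was possible, no p-value is given, and every difference is one between 3 single RNA samples, with the spread between mice unknown.

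Bipolar cells are the interneurons that carry signals from rods and cones to amacrine and ganglion cells. They are born late in retinal development from progenitors that also give rise to rods and Muller glia, and they fall into rod bipolar cells, ON cone bipolar cells and OFF cone bipolar cells. Otx2 is required for bipolar as well as photoreceptor development and remains expressed in bipolar cells. Homeodomain and basic helix-loop-helix factors divide the class: Bhlhe23 acts in rod bipolar cells, Isl1 in rod and ON cone bipolar cells, and Vsx1, Bhlhe22, Irx5 and Irx6 mainly in OFF cone bipolar cells. At postnatal day 12 bipolar cells have been born and are completing their dendrites and axon terminals. Several of the factors also act in other retinal neurons, Isl1 in ganglion and starburst amacrine cells, and Bhlhe22 and Prdm8 in amacrine cells. In whole retina RNA, fewer cells of a type and less RNA per cell cannot be told apart.

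Because Otx2 and Crx are the genes named in the mutant genotypes, the sequence before the start of each factor's gene was searched on both strands for TAATCC, which reads GGATTA on the other strand and is the core that the homeodomains of Crx and Otx2 bind. RefSeq windows of GRCm38.p6 were matched for 6 of the 9 genes: Vsx1, Isl1, Bhlhe23, Lhx4, Sebox and Prdm8. The 250 bases before the start held the core in 1 of these 6, Isl1, compared with 6.25% of the 32851 windows in the whole table. The palindrome TAATTA, which many other homeodomains bind, was found in 0 of the 6 windows and in 4.84% of all windows, and the 2 motifs share the letters TAAT. A match is a description of the letters and not a binding site, and a window without one says nothing about enhancers elsewhere. The windows are printed for Sebox and Vsx1, which had the lowest signals relative to wild-type, for Lhx4, which had the highest in Crx KO, and for Isl1, with the core in capitals:
Sebox, chr11:78503263-78503512, plus strand: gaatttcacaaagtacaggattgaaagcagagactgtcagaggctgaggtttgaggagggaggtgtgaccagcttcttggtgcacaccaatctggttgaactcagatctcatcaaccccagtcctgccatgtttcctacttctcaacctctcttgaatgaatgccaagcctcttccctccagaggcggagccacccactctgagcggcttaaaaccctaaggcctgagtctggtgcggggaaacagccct
Vsx1, chr2:150689138-150689387, minus strand: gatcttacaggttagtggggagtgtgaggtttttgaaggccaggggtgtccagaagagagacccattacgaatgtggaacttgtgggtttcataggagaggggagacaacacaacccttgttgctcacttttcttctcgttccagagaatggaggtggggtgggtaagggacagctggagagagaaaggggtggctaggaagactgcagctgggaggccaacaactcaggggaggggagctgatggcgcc
Lhx4, chr1:155742028-155742277, minus strand: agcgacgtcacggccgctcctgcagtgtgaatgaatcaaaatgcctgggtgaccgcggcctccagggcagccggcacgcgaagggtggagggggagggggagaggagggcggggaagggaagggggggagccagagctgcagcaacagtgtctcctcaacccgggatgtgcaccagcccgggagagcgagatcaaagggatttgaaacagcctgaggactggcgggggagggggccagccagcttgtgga
Isl1, chr13:116309689-116309938, minus strand: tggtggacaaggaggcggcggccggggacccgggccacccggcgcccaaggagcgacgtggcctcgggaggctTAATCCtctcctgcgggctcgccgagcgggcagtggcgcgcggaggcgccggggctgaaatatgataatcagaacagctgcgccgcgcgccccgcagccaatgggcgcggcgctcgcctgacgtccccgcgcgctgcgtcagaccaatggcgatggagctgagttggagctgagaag
In Isl1 the core lay 177 to 172 bases before the start. The array design refers to the build mm9, so these coordinates belong to the reference table and not to the probes.

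The arrays were alike in technical quality. Of 59305 non-control spots, 63.5% to 67.1% were well above background on each array and 0 were saturated. Signals were divided by each array's 75th percentile and put on the wild-type scale, which is called scaled signal below. The ± after a signal is the error that the scanner software assigns to the spot on 1 array. It came to about 0.20 on the log2 scale for a difference between arrays, and it does not include the spread between mice. It was nearly the same for each of the 9 factors. Probes printed at 10 or more spots varied less within an array, with a median SD of 0.07 on the log2 scale. Crx itself read 9790 in wild-type against 1062 in Otx2 KI and 7177 on the Crx KO array, and Otx2 read 40886, 63860 and 62981. Since the altered sequences are not described in the labels, it is not known whether the probes fall inside them, and these values check no label. Rod and cone markers gave the largest contrast in the same RNA: of 11 measured genes, 8 fell by at least 2-fold in Otx2 KI (median log2 difference -3.45) and 9 in Crx KO (median -2.54).

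All 9 factors were expressed above background on all 3 arrays, and none differed by 2-fold or more between any of the genotypes. In Otx2 KI against wild-type the count was 0 of 9, where 3.88% of the 15809 genes measured passed 2-fold in either direction. In Crx KO against wild-type it was 0 of 9, against 5.38% of 16050 genes, and in Otx2 KI against Crx KO 0 of 9, against 1.32% of 15806. With shares this low among all genes, a count of 0 among 9 is near the background. The log2 differences of the factors ran from -0.76 to 0.24 in Otx2 KI, with a median of -0.04 (0.03 over all genes), and from -0.47 to 0.44 in Crx KO, with a median of -0.07 (-0.01 over all genes). The median size of a difference, regardless of sign, was 0.17 for the factors and 0.16 for all genes in Otx2 KI, and 0.21 and 0.18 in Crx KO. Summed over the 9 probes, the scaled signal was 20433 in wild-type against 19689 in Otx2 KI and 19959 on the Crx KO array.

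**Figure D1:**
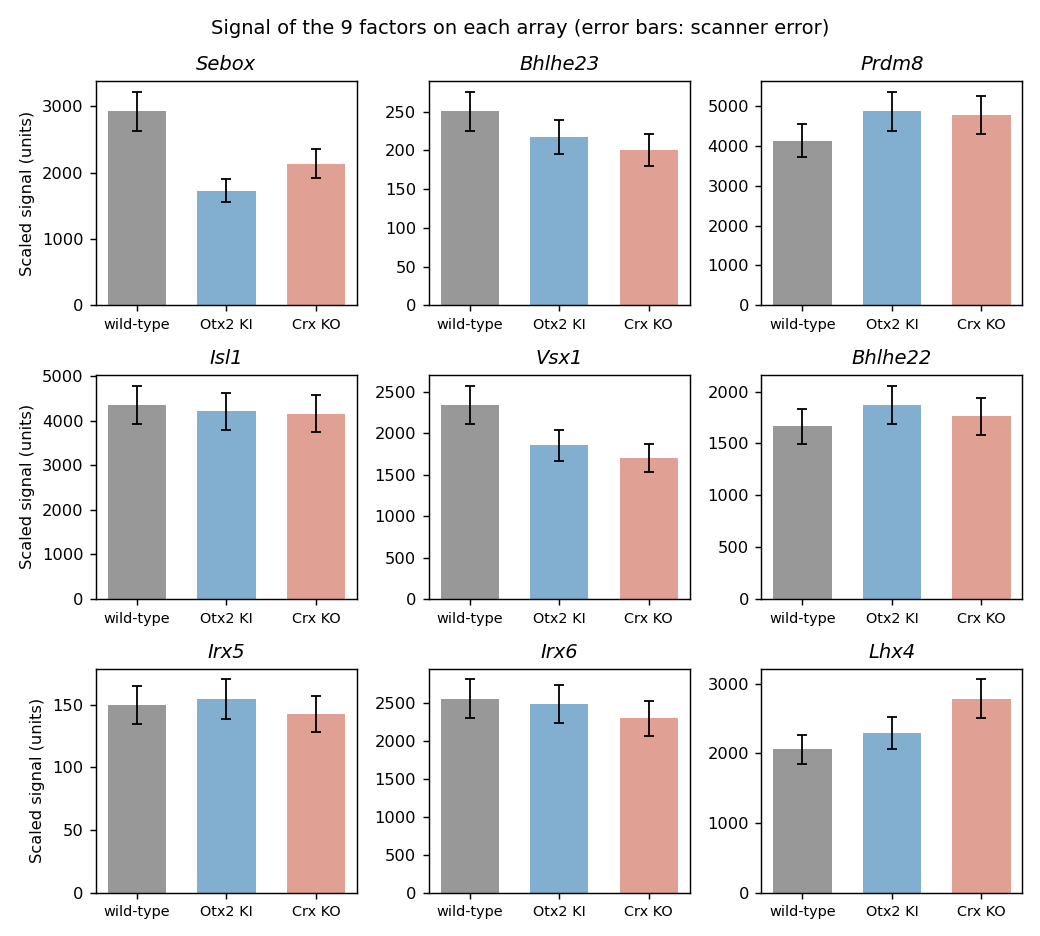
Bars give the scaled signal (linear units, axis from 0) of the probe of each factor in each of the 3 genotypes, 1 array per genotype, and error bars give the scanner error of that signal. Sebox read 2929 in wild-type against 1727 and 2137 in the mutants, while the bars of Isl1, Irx5, Irx6 and Bhlhe22 overlapped across all 3 arrays.

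Among the factors of rod bipolar cells, Sebox, a paired-like homeobox gene enriched in rod bipolar cells, stood lowest relative to wild-type. It read 2929 ± 293 in wild-type against 1727 ± 173 in Otx2 KI and 2137 ± 214 on the Crx KO array. Both mutant arrays were below wild-type by more than the error bars, and Otx2 KI was the lowest of the 3. Both are set against the same single wild-type spot. The log2 difference from wild-type was -0.76 ± 0.20 in Otx2 KI (1.70-fold lower) and -0.46 ± 0.20 in Crx KO (1.37-fold lower). In Otx2 KI, 4.24% of all measured genes were as low or lower, and in Crx KO 11.8%. Sebox was the 1 factor of 9 that reached 1.5-fold in Otx2 KI, a limit that 6.35% of all genes passed in the lower direction and 10% in either. In Crx KO 0 of 9 reached it, where 13.3% of all genes did, and between the mutant arrays 0 of 9, where 4.75% did.

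Bhlhe23, the basic helix-loop-helix factor that rod bipolar cells need to mature and survive, was dim. It read 251 ± 25.2 in wild-type against 218 ± 22.0 in Otx2 KI and 200.5 ± 20.2 on the Crx KO array, signals that were 24.7, 17.5 and 24.1 times the lowest signal counted as well above background on those arrays. Wild-type was the highest, its error bar overlapped that of Otx2 KI, and it lay clear of that of Crx KO. The log2 differences were -0.20 ± 0.21 in Otx2 KI and -0.32 ± 0.21 in Crx KO. Prdm8, a PR domain zinc finger protein that works as a repressor together with Bhlhe22, was higher in both mutant arrays. Its signal was 4128 ± 413 in wild-type against 4870.3 ± 487 in Otx2 KI and 4777 ± 478 on the Crx KO array, with overlapping error bars. The log2 differences were 0.24 ± 0.20 and 0.21 ± 0.20.

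Isl1, the LIM-homeodomain factor of rod and ON cone bipolar cells, was the factor measured most precisely, because its probe was printed at 10 spots on each array. Averaged over those spots, the wild-type array gave 4360.0 ± 176 (SD, n = 10 spots of 1 array), the Otx2 KI array 4213 ± 164 (SD, n = 10 spots) and the Crx KO array 4164 ± 138 (SD, n = 10 spots). The spots ran from 3984 to 4659, from 3919 to 4443 and from 3871 to 4318, so the ranges of the 3 arrays overlapped. The log2 difference was -0.05 in Otx2 KI and -0.07 in Crx KO, both inside the scanner error of 0.20. That error was averaged over the 10 spots and not reduced for their number, so it does not give the precision of the mean. Compared position by position, Otx2 KI was below wild-type at 8 of 10 spot positions (SD of the log2 difference over positions 0.06) and Crx KO at 10 of 10 (SD 0.04). The scaling between arrays moves all positions together, and the Crx KO difference was -0.21 with centring on inner retina genes and -0.01 in the authors' deposited table. The spots repeat the measurement of 1 RNA sample and are not replicates of a genotype. The window of Isl1 is the one printed above with a TAATCC core.

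**Figure D2:**
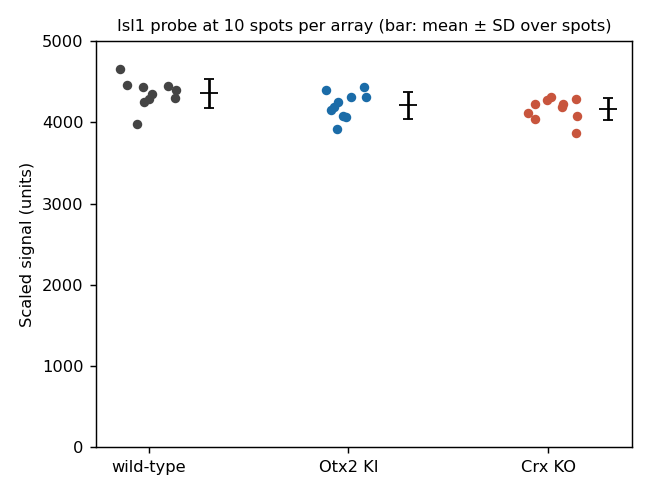
Points give the scaled signal (linear units, axis from 0) of the Isl1 probe at each of its 10 spots per array, 1 array per genotype, with the mean ± SD over spots beside them. The 3 clouds overlap, with means of 4360.0, 4213 and 4164.

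Of the factors of OFF cone bipolar cells, Vsx1 showed the largest difference. Vsx1, a paired-like homeodomain factor with a CVC domain that OFF cone bipolar cells need for terminal differentiation, read 2341 ± 234 in wild-type against 1852 ± 185 in Otx2 KI and 1696 ± 170 on the Crx KO array. Both mutant arrays lay below wild-type by more than the error bars, and the error bars of the mutant arrays overlapped each other. The log2 difference was -0.34 ± 0.20 in Otx2 KI (1.26-fold lower) and -0.47 ± 0.20 in Crx KO (1.38-fold lower), where 11.5% of all genes were as low or lower. The difference in Otx2 KI was less than 2 times its scanner error, and both differences use the same single wild-type spot.

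Bhlhe22, a basic helix-loop-helix repressor of OFF cone bipolar and amacrine cells, read 1665 ± 167 in wild-type against 1872 ± 187 in Otx2 KI and 1762 ± 176 on the Crx KO array, with log2 differences of 0.17 ± 0.20 and 0.08 ± 0.20. Irx5, an Iroquois homeodomain factor of OFF cone bipolar cells, was dim, at 12.4 to 17.1 times the lowest signal counted as well above background. It read 150.0 ± 15.1 in wild-type against 154 ± 15.7 in Otx2 KI and 142 ± 14.4 on the Crx KO array, and its log2 differences were 0.04 ± 0.21 and -0.07 ± 0.21. Irx6, the neighbouring Iroquois gene, which restrains Vsx1 and Bhlhe22 in a subtype of OFF cone bipolar cells, read 2557 ± 256, 2493 ± 249 and 2299 ± 230. Its log2 differences were -0.04 ± 0.20 and -0.15 ± 0.20. For these 3 genes the error bars of all arrays overlapped, and every difference was smaller than its scanner error.

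Lhx4, a LIM-homeodomain factor of cone bipolar cells that is also made by developing photoreceptors, was the factor with the highest signal relative to wild-type in Crx KO. It read 2055 ± 206 in wild-type against 2293 ± 229 in Otx2 KI and 2783 ± 278 on the Crx KO array. The error bar of Crx KO lay above that of wild-type, and that of Otx2 KI overlapped both. The log2 difference was 0.16 ± 0.20 in Otx2 KI and 0.44 ± 0.20 in Crx KO (1.35-fold higher), and 8.09% of all genes were as high or higher in Crx KO. The summed signal of rod and cone markers was 588138 in wild-type against 152141 in Otx2 KI and 156700 on the Crx KO array. A sum over probes is weighted towards the brightest ones and cannot show which cells the Lhx4 signal came from. The part of photoreceptor RNA in the Lhx4 signal was not tested.

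**Figure D3:**
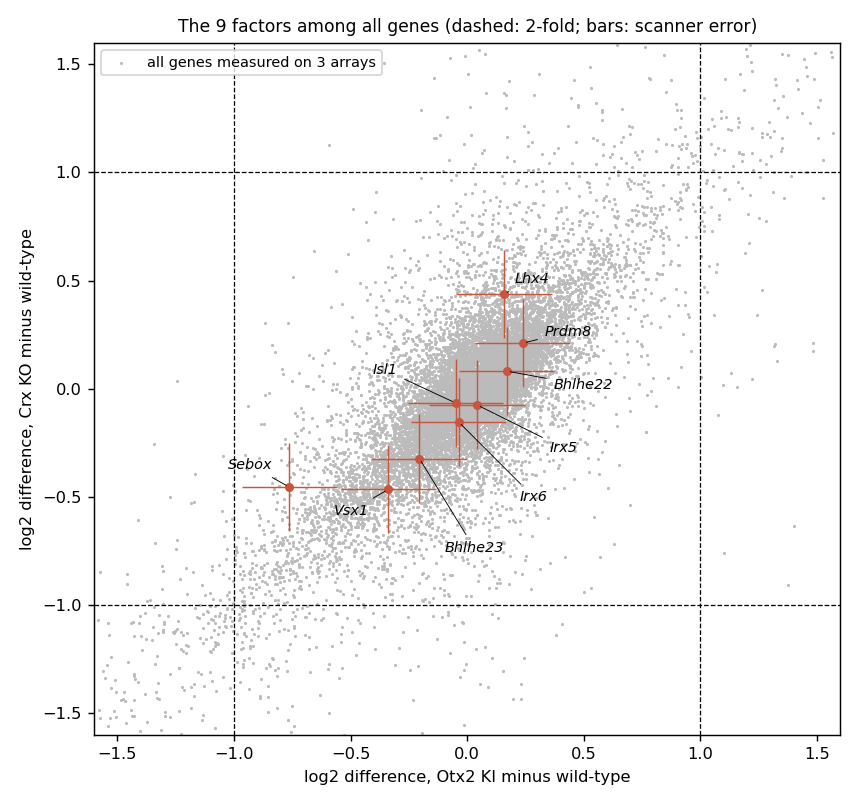
Each red point is 1 factor, placed by its log2 difference from wild-type in Otx2 KI (horizontal) and in Crx KO (vertical), with the scanner error of each difference as bars; grey points are the 15384 of 15743 genes measured on all 3 arrays that lie inside the axes, and dashed lines mark 2-fold. All 9 factors lie inside the dashed square, with Sebox at -0.76 and -0.46 farthest out, and both axes use the same wild-type array.

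A finer rule, set after the values were seen, counted differences larger than 2 times their scanner error. That error was close to 0.20 for each of the 9 factors, so for them the rule acted much like 1 fixed limit. In Otx2 KI it took 1 of the 9 factors, Sebox, where 15.6% of all genes passed. In Crx KO it took 3, Vsx1 and Sebox below wild-type and Lhx4 above, where 20.5% of all genes passed. Between Otx2 KI and Crx KO it took 0, where 8.15% passed. No test sets these counts apart from the shares among all genes.

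Otx2 KI and Crx KO were also compared with each other. The log2 difference, Otx2 KI minus Crx KO, was lowest for Sebox (-0.31 ± 0.20, 1.24-fold lower in Otx2 KI) and Lhx4 (-0.28 ± 0.20, 1.21-fold lower). The other 7 factors lay between 0.02 and 0.13, inside the scanner error. The median was 0.09, beside 0.04 over all genes.

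The other regulators of bipolar fate and subtype were also within 2-fold, 16 of 16 in both mutant arrays, with medians of 0.18 in Otx2 KI and 0.16 in Crx KO. Prdm1, a repressor that holds photoreceptor precursors back from bipolar fate, read 2301 in wild-type against 3931 in Otx2 KI and 2559 on the Crx KO array (log2 0.77 and 0.15). Its signal was highest in Otx2 KI, and Crx KO was closer to wild-type.

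Genes that mark the bipolar subtypes gave the setting for their factors. Of 8 rod bipolar markers 0 passed 2-fold in Otx2 KI, although all 8 were below 0 (median -0.20). These 8 include Prkca, the protein kinase used to stain these cells, at log2 -0.22, and the GABA receptor subunit gene Gabrr1 at -0.34. In Crx KO 1 of the 8 fell past 2-fold, and the median was -0.16. This was Car8, a carbonic anhydrase-related gene, which read 912 in wild-type against 789 in Otx2 KI and 256 on the Crx KO array (3.56-fold lower in Crx KO, log2 -1.83, or -1.61 with normexp background correction). A second Car8 probe gave log2 -0.09 (Otx2 KI) and -1.92 (Crx KO array), so Car8 stood apart on the Crx KO array alone, on both probes.

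Of 11 genes of the ON-bipolar glutamate cascade 2 fell past 2-fold in Otx2 KI (median -0.18) and 0 in Crx KO (median 0.06). The G protein subunit gene Gnb5, whose product stabilises RGS proteins in bipolar cells and photoreceptors, read 18931 in wild-type against 7374 in Otx2 KI and 9609 on the Crx KO array (log2 -1.36 and -0.98, and -1.39 and -0.97 on its other probe). Lrit3, a synaptic protein of this cascade, read 114, 44.9 and 95.4 (log2 -1.34 and -0.25), but it was dim and lay within 2-fold in Otx2 KI with normexp (log2 -0.72). Normexp was run with an offset of 50 added to each signal, which by itself shrinks the differences of dim probes.

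The OFF cone bipolar list had 0 of 10 measured genes past 2-fold in either mutant array, with medians of 0.04 and -0.01. Tacr3, the neurokinin receptor of OFF cone bipolar cells, read 356 in wild-type against 332 in Otx2 KI and 382 on the Crx KO array. The kainate receptor gene Grik1 read 228, 241 and 226. For the zinc finger gene Fezf1 the probes disagreed, with log2 -0.24 and -0.74 on the one used and -2.66 and -2.31 on the other. With normexp the brightest probe was picked anew from the corrected signals, so the value need not come from the same probe. It was -1.40 and -1.31, so that 1 gene of this list, Fezf1, was past 2-fold in both mutant arrays there. The mean of both probes gave -1.45 and -1.53.

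Of 9 measured ON cone and shared cone bipolar genes 2 rose past 2-fold in Otx2 KI (median 0.33) and 1 in Crx KO (median 0.15). Igfn1, an immunoglobulin-like and fibronectin domain gene that marks one ON cone type, read 71.6 in wild-type against 204 in Otx2 KI and 181 on the Crx KO array (log2 1.51 and 1.33, but 0.99 and 0.90, under 2-fold, with normexp). Igfn1 was dim, so the normexp offset shrinks its differences as well. The potassium channel subunit gene Kcnab1 read 2486, 5126 and 4453 (log2 1.04 and 0.84). Cabp5, a calcium-binding protein of rod and cone bipolar types, read 12703, 9943 and 12283 (log2 -0.35 and -0.05). A second, dimmer Cabp5 probe read 733, 578 and 866 (log2 -0.34 and 0.24). Over the 5 bipolar lists together, 4 of 54 measured genes passed 2-fold in Otx2 KI and 2 of 54 in Crx KO, where 3.88% and 5.38% of all genes did.

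**Figure D4:**
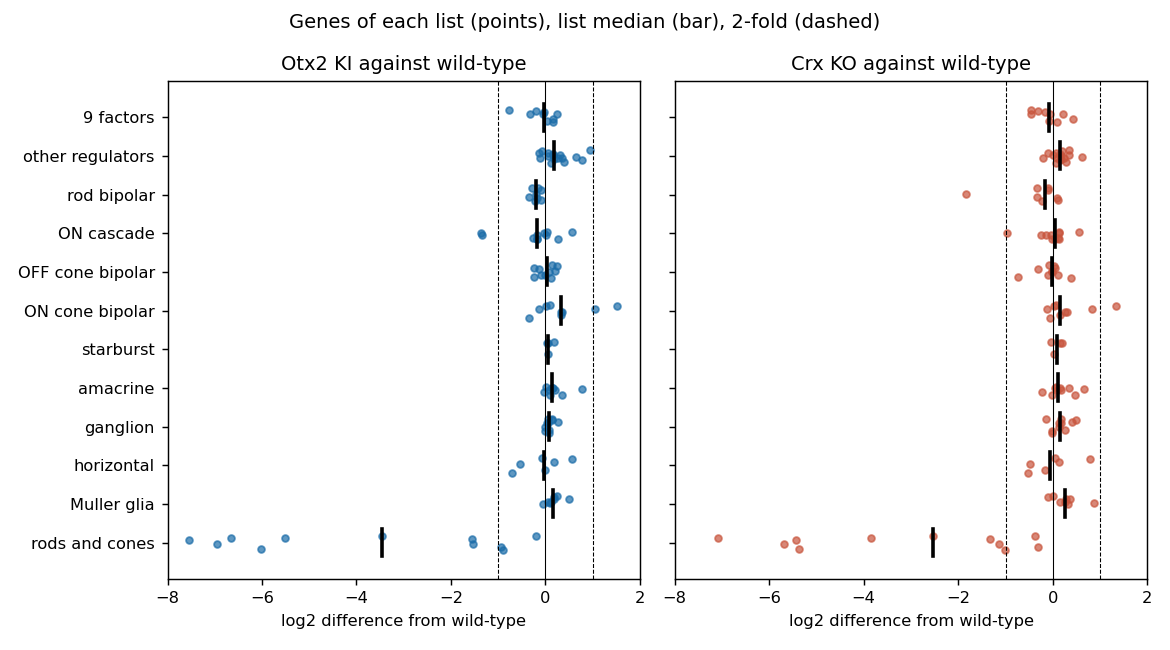
Points give the log2 difference from wild-type of each measured gene in each list, in Otx2 KI (left) and Crx KO (right), black bars give the list median and dashed lines mark 2-fold. The 9 factors lie between -0.76 and 0.44, single genes of the bipolar lists such as Car8 (-1.83 in Crx KO) and Igfn1 (1.51 in Otx2 KI) lie past 2-fold, and the rod and cone list has medians of -3.45 and -2.54.

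Markers of the other cells that make these factors, or that the dissection can carry along, were read beside them. Starburst amacrine genes had medians of 0.06 in Otx2 KI and 0.09 in Crx KO, other amacrine genes 0.14 and 0.12, ganglion cell genes 0.07 and 0.15, horizontal cell genes -0.04 and -0.06, and Muller glia genes 0.15 and 0.26, with 0 of their 38 genes past 2-fold in either array. Microglia genes had medians of 0.12 and -0.34, with 0 of 7 past 2-fold. Pigment epithelium markers were lower, with 2 of 8 past 2-fold in Otx2 KI (median -0.91) and 6 of 8 in Crx KO (median -1.65), and their summed signal was 22335 in wild-type against 11231 in Otx2 KI and 7249 on the Crx KO array. Of 6 lens genes measured on both arrays, 3 rose past 2-fold in Otx2 KI (median 0.93) and 0 passed in Crx KO (median -0.70). With normexp these medians were 0.56 and -0.35, and in Otx2 KI the mean over all probes of a gene gave 0.66. Other probes of Cryaa and Crygc, crystallin genes among the 3, gave 0.28 and -0.25 in Otx2 KI. The summed lens signal was 753 in wild-type against 1321 in Otx2 KI and 534 on the Crx KO array. The part of these cells in the signals of the 9 factors was not tested.

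For the factor with the largest difference in each mutant array, the genes with the most similar pair of differences were sought over the 3 arrays, by Euclidean distance on the log2 scale. For Sebox, the nearest genes on the array among those brighter than the median gene were Cck, which encodes cholecystokinin (distance 0.07), Lrfn2 (0.07) and Igsf9 (0.08). Cck read 1292 in wild-type against 801 in Otx2 KI and 941 on the Crx KO array. Among the genes of the fixed lists the nearest were Calb1 (0.09), Septin4 (0.23) and Gnat2 (0.24). Of Sebox, 54 of 7864 genes (0.687%) lay within a distance of 0.2. For Vsx1 the nearest were Btbd10 (0.01), Sf3a2 (0.02) and Bzw2 (0.02), and near genes of the lists included Gabrr1 (0.13) and Nr2e3 (0.17). Within 0.2 of Vsx1 lay 493 of 7864 genes (6.27%), so its pattern was shared by many genes.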

How the data were processed

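Per the labels' protocols, total RNA was purified with QIAzol from dissected retinas, amplified and labelled with Cy3. Per the file headers, spot intensity values were written by Agilent Feature Extraction 12.0.3.1 for a design of the build mm9. Its processed signal, already background-subtracted, was used. The authors' deposited value table holds the same intensity times 1 constant per array (2.49, 2.54 and 2.61, with column medians of 129.8, 125.7 and 135.8), so it is linear and uncentred. How these constants were chosen is not given here.

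Control and outlier spots (126 to 136 per array) were left out, spots of a probe were averaged as log2 values, and each array was reduced by its 75th percentile (574, 564 and 570 units). Accessions matched to RefSeq genes of GRCm38.p6 named 28331 of 55681 probes (50.9%). The brightest probe represented a gene. For each comparison, measured genes were those where the scanner software flagged that probe well above background on each array compared. A measured gene was called where it differed by 2-fold or more (log2 of 1). The number of arrays limits the precision.

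The 9 genes and the 14 other lists (130 genes) were chosen with earlier results of these data known. Named from the lists were genes past 2-fold, otherwise up to the 2 with the largest difference, besides markers that check the tissue. The subtype markers Prkca, Gabrr1, Tacr3, Grik1 and Cabp5 were named outside that rule, after their values were seen. Some genes that the rule names are not reported here. Alternatives were normexp, quantile normalization, the authors' table, centring on inner retina genes, all probes averaged, no filter on dim probes and 1.5-fold. Normexp used an offset of 50, and the brightest probe of a gene was picked anew from the signals of each run that changed them. Python 3.11.15, numpy 2.4.6, pandas 2.3.3, R 4.3.3 and limma 3.58.1 were used, and the steps were tested on simulated data.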

Additional observations from a re-analysis of the deposited data

How the results depend on the processing

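With 2-fold as the limit, 0 of 9 factors passed in each comparison under each alternative run. At 1.5-fold 1 passed in Otx2 KI against wild-type, and the genes of the 5 bipolar lists past the limit went from 4, 2 and 2 to 7, 6 and 4 in Otx2 KI, Crx KO and Otx2 KI against Crx KO. With normexp, the counts were 3, 2 and 1, with Fezf1 past the limit and Igfn1 and Lrit3 within it. Each log2 difference of a factor moved by less than its scanner error under the other 6 alternatives, but most of these could not have moved it further. Each factor had 1 probe, well above background, so averaging probes and dropping the filter left it unchanged. The authors' table and centring shift all genes of an array alike, by at most 0.14 for centring. Only normexp and quantile normalization could move the factors separately. Sebox ranged from -0.86 to -0.70 in Otx2 KI and from -0.60 to -0.39 in Crx KO, Vsx1 from -0.61 to -0.41 and Lhx4 from 0.29 to 0.49 in Crx KO. Small values changed sign: Bhlhe22 in Crx KO was -0.06 and Irx5 in Otx2 KI -0.06 with centring on inner retina genes, and Isl1 and Prdm8 between the mutants were -0.04 and -0.01 with quantile normalization. Centring moved the median of all genes from -0.01 to -0.15 in Crx KO. That centring gave 234 genes higher and 709 lower in Crx KO, 24.8% higher instead of 36.3%. Over all genes, calls in Otx2 KI, Crx KO and between the mutants were 613, 863 and 209, with normexp 412, 510 and 85, and without the filter on dim probes 1404, 1864 and 975. Pigment epithelium genes had a median of -1.25 in Crx KO with normexp. The offset of normexp shrinks the differences of dim probes, and the run without the filter takes in genes near background, whose scanner errors are large. How much of the changes these account for, and other causes, were not tested. Normexp used the median spot signal, a choice made after seeing the files, and the planned form on the mean signal was not run. No paired analysis was possible because each genotype has 1 array, and no replicate could be left out.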

Other observations

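Relatives of the 9 factors, taken as all genes of the array named Vsx, Isl, Bhlhe, Lhx, Irx or Prdm with a number, were read after the values of the factors had been seen. Of 28 such genes 22 were measured in Otx2 KI against wild-type and 23 in Crx KO, and 1 and 2 of them were lower by 2-fold or more, with 0 higher, where 3.88% and 5.38% of all genes passed in either direction. The medians were 0.06 and 0.04. Prdm9, a histone methyltransferase gene of meiosis, read 198 in wild-type against 74.0 in Otx2 KI (log2 -1.42) and 78.3 on the Crx KO array (log2 -1.34), and its other probe gave -0.96 and -0.63. The second gene lower in Crx KO, Prdm15, was dim (21.4 in wild-type against 10.6), and its other probe gave log2 0.52. Irx3, which lies in the same gene cluster as Irx5 and Irx6, read 399, 409 and 380.0, so all 3 genes of that cluster were near wild-type on both mutant arrays. Irx4, of the other Iroquois cluster, read 495, 533 and 327 (log2 0.11 and -0.60). Lhx6, a LIM-homeodomain gene best known from forebrain interneurons, read 3495, 5459 and 6186 (log2 0.64 and 0.82), but its 3 probes ran from 0.16 to 0.64 in Otx2 KI and from -0.80 to 0.82 in Crx KO.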
